A study of Mus musculus with 15 samples.

Results

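ERV1 is a family of endogenous retroviruses related to the gammaretroviruses, and it was studied here through the small RNAs of mouse testis that lie in its copies. Members were all loci whose identifier gave the class LTR and the family ERV1, a locus being 1 genomic interval and strand with its read count. There were 112412 such loci of 8128951 in all, under 62 element names. Testis RNA of male C57Bl/6 mice, 8 weeks of age, went into 15 libraries that formed 5 groups of 3. The CMC set held mock-treated and CMC-treated RNA, where CMC is a carbodiimide that binds pseudouridine (Ψ) and stops reverse transcriptase. The Ψ-IP set held input RNA, RNA precipitated with an antibody against Ψ (Ψ-IP) and the unbound flow-through. The sets were made with library kits of different makers, so kit and set cannot be told apart, and levels are compared only within a set. They also differed in length range: no locus of 34 nt or more had counts in the CMC set, while loci of the Ψ-IP set ran to 44 nt. No group carried a mutation. The sources used here do not tie libraries to animals, so p-values measure the spread between libraries, which may be technical.

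PIWI-interacting RNAs (piRNAs) are small RNAs that guide PIWI proteins in the germ line, where they silence transposons. In the adult testis most of them are cut from long single-stranded precursors of clusters that become active at the pachytene stage of meiosis. Their first base is usually a uridine, and their length depends on the PIWI protein that holds them. A retroviral copy has an internal part with the viral genes between 2 long terminal repeats (LTRs), which carry the promoter.

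Sequences were available for loci wholly inside annotated exons, and those below are shown because each pair or trio shares its 3′ end and differs at the 5′ end, the feature counted in the comparison of CMC-treated with mock-treated libraries. All lie in MMERGLN-int, the internal part of the GLN retrovirus, on the plus strand of chromosome 6 (mm10), opposite to an exon of Gm42811, a gene model on the minus strand. Coordinates are those of each first and last base, and capitals mark the 5′ bases of the longer RNA that its shortest form lacked.
chr6:127807967-127807996: TTTattgacttctgttaaatcctgtactga
chr6:127807970-127807996: attgacttctgttaaatcctgtactga
chr6:127807969-127807998: Tattgacttctgttaaatcctgtactgatc
chr6:127807970-127807998: attgacttctgttaaatcctgtactgatc
chr6:127809515-127809542: TAatgaatcattggtggagaagggaaca
chr6:127809516-127809542: aatgaatcattggtggagaagggaaca
chr6:127809517-127809542: atgaatcattggtggagaagggaaca

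Lengths peaked at 30 nt in each of the 15 libraries, within the range of piRNAs. For loci inside exons, the part whose bases could be read, the first base was T in 93.3% of the counts and 59.3% of the loci, against 29.9% and 30.9% for the base before it. The tenth base was A in 29.1% of those counts and 30.7% of those loci. By counts, 75.6% lay outside annotated genes, 11.5% in introns and 12.9% in exons. Library totals ran from 11575705 to 58399368 counts, and 8978 ERV1 loci of the Ψ-IP set and 7130 of the CMC set had more than 20 counts and were tested. These held 88.5% and 93.0% of the ERV1 counts of their sets. No 2 replicates agreed within sampling noise over ERV1 loci, since chi-square per degree of freedom ran from 1.55 to 5.89.

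The deposited counts came from few places in the genome. Per the methods, reads had been overlapped with annotated piRNA clusters, a step that can limit where loci lie, and its part in the numbers of copies and regions and in their strands was not tested. Loci of 1 element name within 500 bp were joined into copies, which gave 311, and the 10 most abundant of these held 62.6% of the ERV1 counts. Copies within 100 kb of each other formed 143 regions. The region on chromosome 6 from 127803653 to 127832758 held 32.4% of the ERV1 counts in 10 copies. Regions on chromosome 2 (92515347 to 92586827) and chromosome 17 (27269953 to 27339429) held 18.9% and 13.3%. These shares pool all 15 libraries. By group mean, the region on chromosome 6 held 31.6% in mock-treated libraries and 35.4% in input, that on chromosome 2 held 24.2% and 13.4%, and that on chromosome 17 held 12.5% and 12.9%. Most of the abundant copies had nearly all their counts on 1 strand. Of 81 copies with more than 1000 counts, 65 had at least 99% on 1 strand. The lowest share was 97.2% among the 20 most abundant copies and 69.6% among the 81, in the MMERGLN-int copy that starts at 127810356 on chromosome 6. Reads of opposite strands overlapped at their 5′ ends most often by 10 nt in 14 of 15 libraries, the overlap left by ping-pong cutting, and by 5 nt in the first mock-treated library. Of overlaps of 1 to 20 nt, those of 10 nt made up between 36.3% and 49.4% in Ψ-IP, between 45.6% and 47.8% in input and between 30.8% and 32.9% in flow-through. They made up between 11.6% and 18.9% in mock-treated and between 12.8% and 16.4% in CMC-treated libraries, made with another kit. Such pairs draw on the small share of reads on the minor strands.

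Few of the 62 names held most of the counts. Over all 15 libraries RLTR14-int, an internal part, held 15.1% of the ERV1 counts, RLTR24 14.4%, MER90a 13.8%, MLTR14 13.3% and MMERGLN-int 12.6%, but the order depended on the set. MER90a held between 20.1% and 20.3% in mock-treated libraries, the most of any name, and between 6.48% and 7.92% in input, below the other 4 of these names. MLTR14 held between 10.2% and 10.5% in mock-treated libraries and between 15.3% and 16.5% in input, where its mean was the highest. MER52-int held between 0.25% and 0.27% in mock-treated libraries and between 6.11% and 7.66% in input. The kits differed between these sets. Levels are CPM, the counts scaled to a common library total, not divided by element length. All 1908 MER90a loci lay in 1 copy on chromosome 2 (92578689 to 92578935), between genes. The murine leukaemia virus names held 0.0094% of the ERV1 counts and the VL30 names 0.798%. Internal parts held 33.9% and the other names 66.1%.

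**Figure D1:**
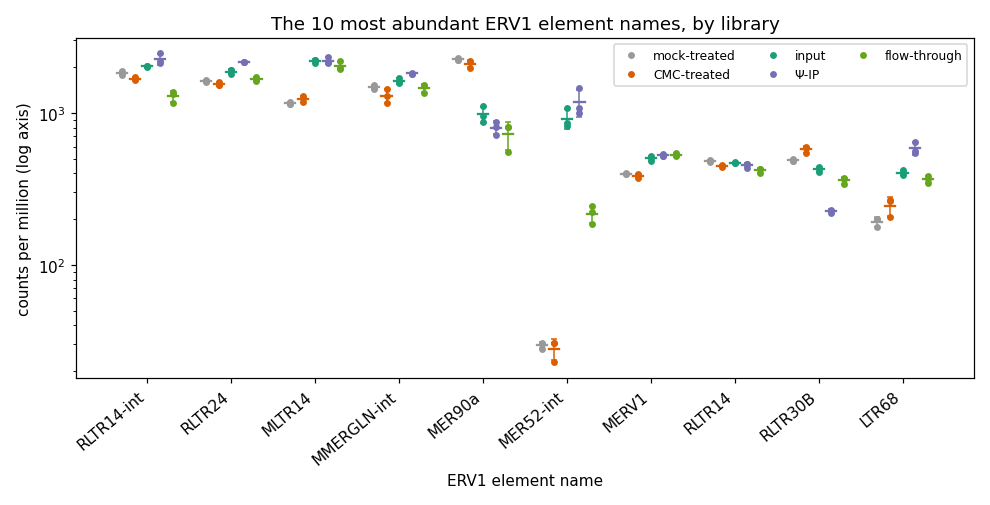
CPM (log axis) of the 10 most abundant ERV1 element names in each library, with points for libraries and bars for the mean ± SD of the 3 libraries of a group. MER52-int was at 217 CPM in flow-through and 1181 CPM in Ψ-IP on average, and RLTR30B was lower in every Ψ-IP library than in every input library.

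The comparison of Ψ-IP with input asks which RNAs the antibody retained. As a family, ERV1 took 1.43%, 1.48% and 1.40% of the counts in the 3 Ψ-IP libraries and 1.37%, 1.40% and 1.35% in input. These ranges overlapped, with means 0.0649 percentage points apart (p = 0.2 in a two-sided exact permutation test, adjusted p = 0.246 over 16 tests of shares). In the test over 34 families ERV1 was 0.10 higher on the log2 scale (SE 0.025) and missed the threshold of 0.01 (edgeR quasi-likelihood test, adjusted p = 0.0114), where 17.6% of families were called higher. It passed without input replicate 2 (0.136, edgeR adjusted p = 0.0073), without Ψ-IP replicate 3 (0.123, edgeR adjusted p = 0.0061), with loci of 24 to 33 nt (0.111) and with no filter on low counts (0.097). The replicate numbers as a block gave the same 0.10 with an adjusted p of 4.0e-13, although these numbers were not found to pair the libraries of the Ψ-IP set.

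Single element names moved in both directions. Of 52 names tested, 3 rose and 3 fell, beside 11.3% and 10.1% of all names called. Leaving out 1 library gave 2 to 4 names higher, and the replicate block gave 6. RLTR30B, an LTR, fell most. It stood at 425, 410 and 439 CPM in input and at 231, 226 and 218 CPM in Ψ-IP, and the groups did not overlap (log2 fold change -0.90, SE 0.054, edgeR adjusted p = 7.2e-07). LTRIS4 fell by 0.48 and RMER5 by 0.39 on the log2 scale. LTR68 rose from 403, 392 and 420 CPM to 647, 562 and 541 CPM (log2 fold change 0.54, SE 0.065, edgeR adjusted p = 5.3e-05). Its single loci did not follow this total. Of 219 tested, 17 rose and 33 fell (7.76% and 15.1%), beside 5.45% and 10.7% of all loci. Their median log2 difference was -0.43. RLTR24 rose by 0.23 and RLTR41A2 by 0.40. MLTR14, with a log2 difference of 0.02 (SE 0.047), gave no call.

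Copies of 1 name differed from each other. Of 196 copies tested, 14 rose and 12 fell, beside 6.34% and 7.47% of all repeat copies. The MLTR14 copy on chromosome 10 (75861313 to 75861776) fell from 820, 737 and 860 CPM in input to 382, 337 and 402 CPM in Ψ-IP (log2 fold change -1.08, SE 0.082, edgeR adjusted p = 5.4e-12). The MLTR14 copy on chromosome 2 (92586350 to 92586827) rose from 718, 657 and 652 CPM to 1097, 957 and 925 CPM (log2 fold change 0.59, SE 0.081, edgeR adjusted p = 4.2e-07). Neither pair of groups overlapped, and the 2 changes had opposite signs. RLTR24 showed the same on chromosome 17, where the copy at 27338429 rose by 0.52 and the copy at 27292126 was lower by 0.32 on the log2 scale, with adjusted p of 4.0e-06 and 0.0023 in the edgeR test.

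**Figure D2:**
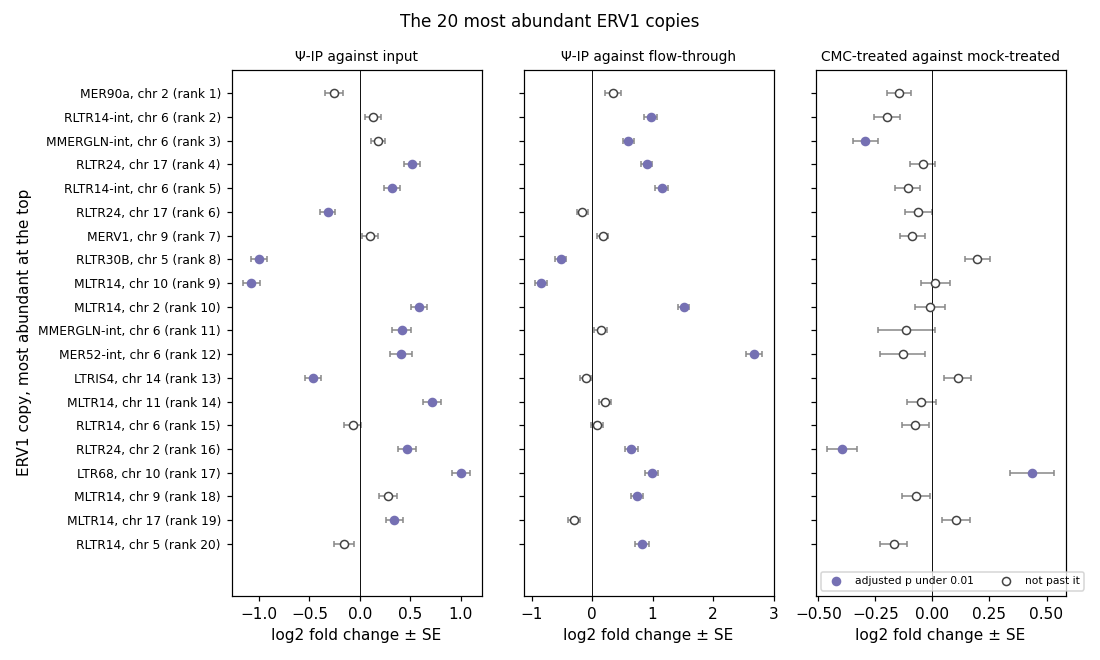
Log2 fold changes (points) with standard errors (bars) of the 20 most abundant ERV1 copies in 3 comparisons, filled where the adjusted p was under 0.01; the scale differs between panels. Copies of MLTR14 and of RLTR24 lie on both sides of 0 in Ψ-IP against input, and 3 of the 20 copies passed the threshold with CMC.

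At single loci, 481 of 8978 rose in Ψ-IP and 927 fell, that is 5.36% and 10.3%, beside 5.45% and 10.7% of all loci, so the ERV1 shares lay close to the background. The numbers depended on the input libraries and the tool. Without input replicate 1, 2 or 3, 230, 317 or 207 loci rose, and 533 fell without the first and 613 without the third. DESeq2 gave 246 higher and 545 lower, and 547 were lower among loci averaging at least 10 counts. The median log2 difference was -0.08 for ERV1 and -0.10 for all loci. Among the most abundant loci, the MLTR14 piRNA at chr2:92586772-92586801 stood at 369, 344 and 322 CPM in input and 766, 652 and 624 CPM in Ψ-IP (log2 fold change 0.84, SE 0.18, edgeR adjusted p = 7.5e-05). The MLTR14 piRNA at chr10:75861375-75861404 fell from 458, 405 and 488 CPM to 167, 140 and 192 CPM (log2 fold change -1.57, SE 0.19, edgeR adjusted p = 2.8e-14). Forms that shared a 5′ end and differed by 1 nt at the 3′ end could differ in response. For MER90a, the 30 nt form at chr2:92578867-92578896 had 332, 418 and 281 CPM in input and 305, 426 and 366 CPM in Ψ-IP, with groups that overlapped. The 29 nt form from the same start had 119, 145 and 96.1 CPM in input and 57.9, 73.5 and 62.7 CPM in Ψ-IP (log2 fold change -1.03, SE 0.20, edgeR adjusted p = 6.1e-06).

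The length profile also differed. ERV1 counts at 29 to 31 nt made up 67.6%, 68.5% and 67.6% in input and 70.2%, 70.3% and 71.0% in Ψ-IP, with no overlap (p = 0.1 in a two-sided exact permutation test, the lowest value possible for groups of 3, adjusted p = 0.133). Over all loci this share was 67.1%, 67.7% and 66.8% in input and 68.4%, 69.1% and 69.7% in Ψ-IP, also with no overlap. Among ERV1 counts the 30 nt class alone rose from between 32.1% and 32.5% to between 35.0% and 35.8%, while the 29 nt class was at 16.9% to 17.2% in input and 14.7% to 15.2% in Ψ-IP. Over all loci the 30 nt class went from between 29.7% and 30.04% to between 30.3% and 30.9%, and the 29 nt class was at 18.4% to 18.7% in input and 18.2% to 18.4% in Ψ-IP. With CMC the 29 to 31 nt share of ERV1 counts went the other way, from 63.0%, 62.2% and 60.7% in mock-treated to 60.2%, 59.4% and 56.7% in CMC-treated libraries, with no overlap (p = 0.1 in a two-sided exact permutation test, adjusted p = 0.133). Over all loci this share also moved down, from 61.1%, 60.5% and 58.6% to 59.0%, 58.3% and 55.7%, with groups that overlapped. Within each replicate number the CMC-treated library was the lower, over all loci as in ERV1.

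**Figure D3:**
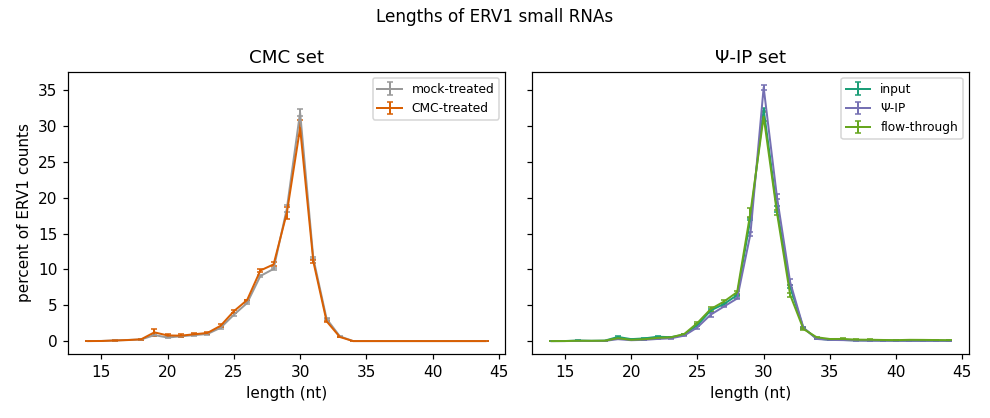
Percent of ERV1 counts at each length in nt, as lines for group means with bars for the SD of 3 libraries, in the CMC set (left) and the Ψ-IP set (right). All groups peak at 30 nt, and Ψ-IP stands highest there.

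The flow-through held the RNA that the antibody had not bound. ERV1 took 1.10%, 1.14% and 1.18% of the counts there, below every Ψ-IP and input library. Against flow-through, the family was 0.29 higher in Ψ-IP on the log2 scale (SE 0.029, edgeR adjusted p = 1.6e-05), beside 23.5% of families called higher. Flow-through against input gave -0.09, which missed the threshold (edgeR adjusted p = 0.0166). It passed, with a larger fall, at -0.169 by DESeq2 (adjusted p = 2.7e-08), at -0.169 in edgeR with DESeq2's size factors (adjusted p = 0.00095) and at -0.129 in edgeR with all 9 libraries in 1 fit (adjusted p = 0.0086). In edgeR it also passed without flow-through replicate 3 (-0.105) or input replicate 2 (-0.111) and with no filter on low counts (-0.116).

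Among element names, the largest change against flow-through was that of MER52-int, an internal part that lay almost wholly in 1 copy on chromosome 6 (127832627 to 127832758). It stood at 853, 1075 and 823 CPM in input, 1079, 1460 and 1003 CPM in Ψ-IP and 186, 223 and 242 CPM in flow-through. The flow-through libraries lay far below the others (Ψ-IP against flow-through, log2 fold change 2.44, SE 0.14, edgeR adjusted p = 4.3e-07; flow-through against input, -2.06, SE 0.12). RLTR14-int was at 1168, 1331 and 1370 CPM in flow-through and 2185, 2469 and 2133 CPM in Ψ-IP (log2 fold change 0.81, SE 0.074, edgeR adjusted p = 5.8e-06). In this comparison 7 of 52 names were higher and 4 lower, beside 18.6% and 18.3% of all names. The others higher were MMERGLN-int, MER110, RLTR24, RLTR48A and LTR68, and those lower were RLTR30B, RMER5, MuRRS-int and LTRIS4. Among copies, 26 of 196 were higher and 7 lower (13.3% and 3.57%), beside 9.33% and 7.41% of all copies. Flow-through against input gave 4 names higher and 4 lower, beside 15.4% and 16.1% of all names, and 11 copies higher and 23 lower, beside 8.63% and 8.97% of all copies. Without input replicate 1 or 3, 13 copies and 2 names were lower in flow-through than in input, and 2 names were higher when any 1 input library was left out. In Ψ-IP against flow-through, 2 names were lower without flow-through replicate 2 or without Ψ-IP replicate 1 or 3.

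By locus, 869 of 8978 were higher in Ψ-IP than in flow-through and 263 lower (9.68% and 2.93%), beside 9.3% and 3.56% of all loci. The lower loci numbered 172 by DESeq2, 167 without Ψ-IP replicate 1 and 154 without Ψ-IP replicate 2. RLTR14-int had 165 higher and 30 lower loci of 975 tested (16.9% and 3.08%). Against input it had 58 higher and 112 lower (5.95% and 11.5%), beside 5.45% and 10.7% of all loci. Its piRNA at chr6:127805717-127805747 had 65.8, 76.9 and 49.0 CPM in Ψ-IP, 38.9, 27.9 and 44.6 CPM in input and 1.40, 1.40 and 1.82 CPM in flow-through (log2 fold change 5.62 against flow-through, SE 0.33, edgeR adjusted p = 1.0e-60). Depletion from flow-through and gain over input did not always go together. The LTRIS4 piRNA at chr14:24093886-24093916 had 3.23, 3.26 and 2.75 CPM in input, 20.2, 14.9 and 16.1 CPM in Ψ-IP and 22.4, 20.2 and 22.4 CPM in flow-through, so input was the group that stood apart. Both comparisons share the Ψ-IP libraries.

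CMC treatment asks which RNAs are lost when reverse transcriptase meets a bound base. The paper describes the treatment as following ligation of the 5′ adapter and as depleting RNAs that contain Ψ. The source of the shortened forms described below was not tested. ERV1 took 1.13%, 1.12% and 1.10% of the counts in mock-treated and 1.09%, 1.10% and 1.08% in CMC-treated libraries. Before rounding these groups did not overlap, with means of 1.12% and 1.09% and CMC-treated libraries 0.0295 percentage points lower (p = 0.1 in a two-sided exact permutation test, the lowest possible, adjusted p = 0.133). In the test over families, ERV1 did not pass the threshold (log2 difference 0.006, edgeR adjusted p = 0.92; families called higher 8.82%, lower 0%), and this sign turned negative with other scalings. Of 52 names, RLTR30B rose, from 484, 495 and 484 CPM to 543, 586 and 595 CPM (log2 fold change 0.21, SE 0.037, edgeR adjusted p = 0.0022), beside 1.87% of all names, and none fell, beside 3.74%. No name rose when any 1 mock-treated library was left out, 3 rose and 3 fell without the first CMC-treated library, and with the replicate numbers as a block 2 names rose and 2 fell. Among copies, 2 of 198 rose and 3 fell, beside 0.578% and 1.31%. With the replicate block 2 copies rose and 5 fell. The MMERGLN-int copy on chromosome 6 (127807546 to 127808154) went from 1083, 1093 and 1067 CPM to 957, 913 and 870 CPM (log2 fold change -0.29, SE 0.057, edgeR adjusted p = 0.0024). No copy was called without the second CMC-treated library or without the second mock-treated library.

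At single loci CMC raised 58 of 7130 and lowered 41 (0.813% and 0.575%), beside 1.07% and 0.654% of all loci. DESeq2 gave 38 higher. With the replicate block, which the CMC libraries qualified for, 63 rose and 75 fell, beside 1.24% and 1.03%. The count of lower loci was 9 without the second mock-treated library and 13 without the second CMC-treated library, and 83 without the first CMC-treated library.

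The loci that rose with CMC were mostly shortened at the 5′ end. A locus was counted as shortened where another locus had the same 3′ end, started 1 to 3 nt upstream and had at least 5 times its counts and at least 20 counts in the input libraries, which took no part in the CMC comparison. Of the 58 ERV1 loci that rose, 45 (77.6%) were shortened, against 1 of 41 that fell (2.44%) and 554 of 7031 that did neither (7.88%). Over all loci these shares were 61.1%, 1.84% and 9.05%. A locus low with mock could pass the count minimum only through the CMC-treated libraries, where it was high. Among loci with more than 20 counts in the mock-treated libraries alone, 13 of 24 that rose (54.2%) were shortened, against 1 of 41 that fell and 7.06% of those that did neither, and over all loci 42.6%, 1.84% and 7.83%. Of the 45, 15 lacked 1 nt, 14 lacked 2 nt and 16 lacked 3 nt. The 33 longer loci that were tested had a median log2 difference of -0.15, and 3 of them rose while 5 fell. In Ψ-IP against input, 15 of 481 higher loci (3.12%) and 51 of 927 lower loci (5.50%) were shortened, against 8.32% of those that did neither, and over all loci the shares were 3.28% of higher and 6.85% of lower loci. The input counts that define a shortened locus also enter that comparison. In Ψ-IP against flow-through, 64 of 869 higher loci (7.36%) and 4 of 263 lower loci (1.52%) were shortened, against 8.00% of those that did neither. Over all loci these shares were 5.89%, 2.70% and 9.34%.

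The ladder of MMERGLN-int at the 3′ end 127807576 shows this at 1 piRNA. The 30 nt RNA at chr6:127807547-127807576 had 79.3, 82.4 and 81.5 CPM in mock-treated and 63.6, 53.8 and 55.3 CPM in CMC-treated libraries (log2 fold change -0.56, SE 0.12, edgeR adjusted p = 0.0019). The form that lacked 1 nt had 3.00, 3.05 and 3.17 CPM with mock and 7.40, 7.91 and 9.03 CPM with CMC. The form that lacked 2 nt had 0.253, 0.223 and 0.175 CPM with mock and 3.93, 4.80 and 4.28 CPM with CMC (log2 fold change 4.23, SE 0.24, edgeR adjusted p = 1.3e-17). The full-length RNA was thus lower and each shortened form higher in every CMC-treated library than in every mock-treated one.

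The RNAs whose sequences are given above had such forms too. The 30 nt RNA at chr6:127807967-127807996 had 201, 199 and 198 CPM in mock-treated and 139, 119 and 109 CPM in CMC-treated libraries (log2 fold change -0.76, SE 0.11, edgeR adjusted p = 1.0e-05). Its form without the first TTT had 0.0842, 0.137 and 0.150 CPM with mock, from 3, 8 and 6 counts, and 0.920, 0.994 and 0.987 CPM with CMC, from 45, 24 and 27 counts. It passed the count minimum through the CMC-treated libraries alone, so these values are a description. The RNA at chr6:127807969-127807998 had 224, 229 and 224 CPM with mock and 191, 156 and 153 CPM with CMC (log2 fold change -0.49, SE 0.11, edgeR adjusted p = 0.0054). Its form without the first T had 29, 31 and 16 counts with mock, and went from 0.814, 0.531 and 0.399 CPM to 1.37, 1.28 and 1.39 CPM (log2 fold change 1.18, SE 0.25, edgeR adjusted p = 0.0027). For the RNA at chr6:127809515-127809542 the longer form did not pass the test (log2 difference -0.15, SE 0.15), and the forms without T and without TA had 3, 7 and 8 and 1, 4 and 1 counts with mock, and 31, 9 and 10 and 23, 4 and 8 counts with CMC, so that both passed the minimum through the CMC-treated libraries. Shortened forms remained a small part of the counts. They made up 3.25%, 3.28% and 3.32% of ERV1 counts in mock-treated and 4.09%, 4.19% and 4.38% in CMC-treated libraries, with no overlap (p = 0.1 in a two-sided exact permutation test, adjusted p = 0.133). Over all loci the means were 3.53% and 4.68%. In the Ψ-IP set, where no library was CMC-treated, shortened forms made up 4.00%, 4.11% and 4.14% of ERV1 counts in input, the group whose counts define them, 3.64%, 3.49% and 2.63% in Ψ-IP and 3.01%, 2.99% and 2.94% in flow-through. Input lay above both other groups without overlap (p = 0.1 each in two-sided exact permutation tests, adjusted p = 0.133).

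**Figure D4:**
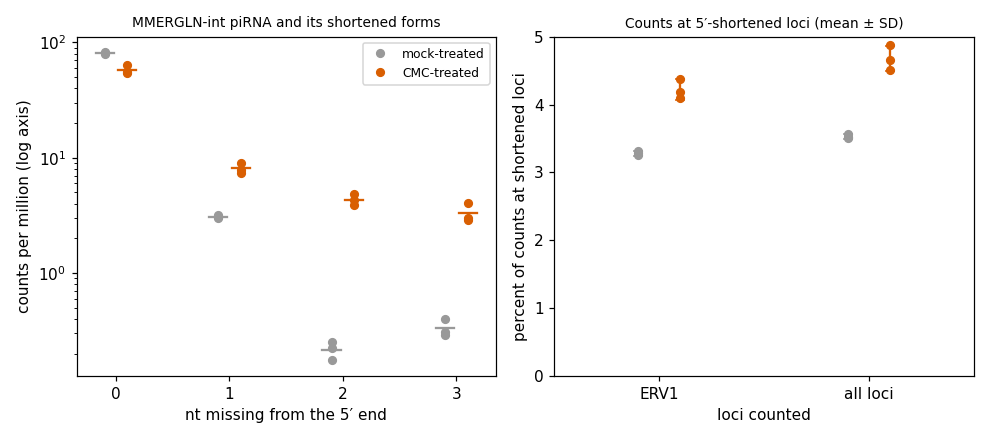
Left, CPM (log axis) of the MMERGLN-int piRNA of chromosome 6 and of its forms lacking 1 to 3 nt at the 5′ end, a point per library and a line for the mean. Right, percent of ERV1 counts and of all counts at 5′-shortened loci per library with mean ± SD; every CMC-treated library lies above every mock-treated one.

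A further rise was not of this kind. The 20 nt LTR68 locus at chr10:62685625-62685644, in an intron of Stox1, had 2.61, 2.24 and 2.60 CPM in mock-treated and 18.5, 29.1 and 44.3 CPM in CMC-treated libraries (log2 fold change 3.55, SE 0.19, edgeR adjusted p = 1.9e-18). The CMC-treated libraries all lay above the mock-treated ones but differed among themselves.

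Retention by the antibody together with loss after CMC was rare, in ERV1 as over all loci. Of 3682 ERV1 loci tested in both comparisons, 6 rose in Ψ-IP against input and fell with CMC (0.163%), beside 0.298% of all loci tested in both. The count was 17 with the replicate block and between 1 and 24 when single libraries were left out. No share over all loci was worked out for these settings, so the counts do not place ERV1 above or below all loci. The most abundant was the 29 nt MER90a piRNA at chr2:92578783-92578811. It had 4.31, 5.25 and 5.14 CPM in input and 11.99, 11.3 and 17.5 CPM in Ψ-IP (log2 fold change 1.36, SE 0.25, edgeR adjusted p = 1.1e-06). With mock treatment it had 139, 118 and 123 CPM and with CMC 109, 87.4 and 69.9 CPM (log2 fold change -0.57, SE 0.13, edgeR adjusted p = 0.0037). A further one was the MMERGLN-int piRNA at chr6:127808089-127808118, opposite to the exon of Gm42811, whose sequence is printed here with its first base in capitals because it was called in both comparisons.
chr6:127808089-127808118: Tcaattagtgtttttggcgatcctttgctt

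The RNA stood at 11.4, 16.1 and 11.4 CPM in input and 32.1, 38.6 and 33.2 CPM in Ψ-IP (log2 fold change 1.28, SE 0.22, edgeR adjusted p = 2.4e-07). It had 3.43, 2.53 and 2.47 CPM with mock and 1.41, 1.82 and 1.24 CPM with CMC (log2 fold change -0.98, SE 0.20, edgeR adjusted p = 0.0011). The groups did not overlap in either set.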

How the data were processed

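Per the methods, the authors trimmed reads with Cutadapt, set tRNA fragments aside, mapped the rest to mm10 with Bowtie 2 and intersected them with the repeat annotation with BEDTools; repeat and other reads were then overlapped with annotated piRNA clusters of the piCdb database. How reads with several alignments were counted is not given in the sources used here, and this bears on repeats. The deposited values are raw counts per interval and strand, 1 file per library. ERV1 members and lists were chosen with earlier results of these data known; copies, regions and the definition and mock minimum of shortened loci were chosen after seeing the data. Loci with more than 20 counts over their set were tested over all loci, names, copies or families with edgeR 4.0.16 in R 4.3.3 (TMM, quasi-likelihood test, Benjamini-Hochberg adjustment over the whole table, threshold 0.01; the SE is the log2 fold change over the root of F). DESeq2 1.42.0 was an alternative. CPM values use library totals. Names and loci given were taken, by a rule fixed on abundance and on the largest called changes (10 names, 6 loci, then 5 rises and 5 falls per comparison averaging at least 50 counts, and up to 5 called in both), and a few are printed with the ladder forms. On simulated data, 200 loci averaging at least 50 counts were changed 4-fold. Of these, 197 were recovered for Ψ-IP against input, 151 against flow-through and 200 for CMC. Recovery of changed loci with fewer counts, many of which were tested, was not simulated. Over loci averaging above 50 counts, same-numbered libraries deviated together in the CMC set (r = 0.12, 0.14 and 0.28). Above 10 counts r was 0.037, 0.054 and 0.13. For Ψ-IP and input, replicates 1 and 2 deviated together (0.24 and 0.29) but replicate 3 did not (-0.029). The minimum of 50 was not in the first plan, and the main CMC tests did not use the pairing. Exon sequences and annotation came from GENCODE for GRCm38, the assembly of mm10. The sources used here name no counting by molecular identifiers, so reads may not be independent molecules; the SEs and p-values include the spread between libraries.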

Additional observations from a re-analysis of the deposited data

How the results depend on the processing

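Of the alternatives to the main values, DESeq2's Wald test gave 246 higher and 545 lower ERV1 loci in Ψ-IP against input, 38 higher with CMC and 172 lower against flow-through, and loci averaging at least 10 counts gave 547 lower against input, with fewer loci tested. With the replicate block, 75 loci fell with CMC, 6 names rose in Ψ-IP, 2 names rose and 2 fell with CMC, 5 copies fell with CMC, and 17 loci were called in both sets; loci of 24 to 33 nt gave 10. Names higher with CMC were 2 by DESeq2 and 2 with no filter; copies higher with CMC were 0 by DESeq2 and 1 at 24 to 33 nt, and 5 copies fell with no filter. The family total in Ψ-IP against input passed the threshold with the block (0.104), without input replicate 2 or Ψ-IP replicate 3, at 24 to 33 nt (0.111) and with no filter (0.097). In flow-through against input it passed without flow-through replicate 3 or input replicate 2, with all 9 libraries (-0.129), DESeq2 (-0.169), its size factors (-0.169) and no filter (-0.116). With CMC it was -0.037 by DESeq2, -0.037 with its size factors and -0.014 with no filter. The MER90a 30 nt locus in Ψ-IP against input was 0.049 at an average of at least 10 counts. The cause of these changes was not tested.

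Leaving out 1 library gave, in Ψ-IP against input, 207 to 532 loci higher and 533 to 895 lower and a family total of 0.081 to 0.136; against flow-through 154 to 225 loci and 2 to 4 names lower; with CMC 9 to 83 loci lower, 0 to 3 names higher, 0 to 3 lower, 0 to 3 copies higher, 0 to 5 lower and a family total of -0.045 to 0.020; in flow-through against input 13 to 22 copies lower, 2 to 4 names higher, 2 to 5 lower and a family total of -0.111 to -0.072. Loci called in both sets were 1 to 24. Uncalled values that changed sign were MER52-int with CMC (-0.182 to 0.0096), MER90a (-0.010 to 0.262) and MERV1 (-0.025 to 0.011) against flow-through, MLTR14 against input (-0.0099 to 0.040), the 29 nt MER90a locus against flow-through (-0.471 to 0.011), the 32 nt MER52-int locus (-0.042 to 0.316) and the 30 nt MER90a locus (-0.211 to 0.132) against input. With 3 libraries a group, an exact permutation test of a share cannot pass a threshold of 0.05.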
